A study of Mus musculus with 18 samples.

Results

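The comparison described here is the transcriptional response of NIH-3T3 cells to interferon γ (IFNγ) while protein synthesis was blocked. It rests on 6 of the 18 arrays of the series, the 3 labelled 'IFNg, + CHX' and the 3 labelled 'Mock, + CHX', which were chosen by these labels alone. NIH-3T3 is an established line of mouse fibroblasts, and all cells carried the same genotype. Both groups received cycloheximide (CHX), an inhibitor of translation, 15 min before the IFN step. One group was then given 100 U/ml of IFNγ and the other mock treatment, for 60 min. In the second part of that time, over 30 min, the medium contained 500 µM 4-thiouridine (4sU), a nucleoside that is built into RNA as it is made. RNA that carried 4sU was purified and hybridised to Affymetrix mouse genome arrays, so that the values follow RNA made within the pulse and not the pool already present. The other 12 arrays hold mock, IFNα and IFNγ with the solvent DMSO in place of CHX, and IFNα with CHX, again with 3 arrays each. IFNα was also given at 100 U/ml for 60 min, so each IFN was studied at 1 dose and 1 time. All replicates came from 1 cell line, and the p-values measure the spread between these arrays.

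IFNγ binds a receptor whose subunits carry the kinases JAK1 and JAK2. These phosphorylate STAT transcription factors, which dimerise, enter the nucleus and bind palindromic GAS elements in promoters. Type I IFNs such as IFNα signal through JAK1 and TYK2 to a complex of STAT proteins with IRF9, which binds a different element, the ISRE. Several products of the first wave of transcription, among them IRF1 and the SOCS proteins, act back on the response. With CHX present these proteins cannot be made, and what IFNγ still changes is taken as the primary response. CHX alone also altered transcription: against mock without CHX, 309 genes were raised and 656 lowered by the rule given below. The question of the comparison was therefore which genes IFNγ regulates without new protein in cells so altered, and by how much.

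IFNγ raised the transcription of 413 genes and lowered that of 75 under CHX, of 12121 genes with a probe set that was tested. A gene was called at an adjusted p under 0.01 (limma, Benjamini-Hochberg over all probe sets kept) and a change of at least 2-fold. The 413 genes are 3.41% of those tested, and the 75 are 0.619%. Rises were also much larger than falls. The median log2 change was 1.93 among raised and -1.35 among lowered genes, and it was -0.02 over all genes tested. A rise of at least 8-fold was found for 83 genes and one of at least 32-fold for 19, whereas 11 genes fell at least 4-fold. Counted by probe set, 714 were raised and 170 lowered. Each gene was judged by 1 probe set, the brightest, and others of the same gene often missed the threshold. Of 204 raised genes with several kept probe sets, 69 had every probe set raised. Of 38 such lowered genes, 6 had every probe set lowered. No raised gene had a probe set called lowered, and no lowered gene had one called raised. In all 413 raised and all 75 lowered genes the 3 arrays of one group lay outside the range of the other, which held for 18.2% of all genes tested. The calls were made on these same arrays, so this separation is no independent support for them.

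Same-numbered arrays of the 2 groups deviated together, and with the replicate number as a block 456 genes were raised and 116 lowered. The falls were thus more numerous in this fit, which applied the same replicate effects to all 6 treatments. The labels do not say what the replicate number marks. When only these 6 arrays were fitted, which leaves 4 residual degrees of freedom, the counts were 155 and 7. All of the 20 largest rises stayed called there, and of the listed genes 39 were raised and 1 lowered, against 64 and 16. Stat2 and Cxcl10 were among those that missed the threshold (adjusted p of 0.0736 and 0.0207). Arrays of the same group correlated at r of 0.959 to 0.990 on the log2 scale, with replicates 2 and 3 of the controls the closest pair. These 2 arrays held identical values at 2130 kept probe sets, against 197 to 902 in the other pairs. The cause was not tested. Without replicate 1 of both groups 384 genes were raised and 54 lowered.

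The cells expressed fibroblast genes throughout. All 11 fibroblast markers were measured, and their summed intensity was 55838 to 61791 in the mock arrays with CHX and 61401 to 67889 in the IFNγ arrays with CHX. Thy1 rose by 1.69 (log2), and the other 10 were not called. Of 9 leukocyte markers with a probe set, 6 stayed under the filter of 8.5 on every array, Ptprc (CD45), Itgam and Adgre1 among them, and the 3 that passed (Cd68, Lyz2 and Cd14) summed to 312 to 556 and to 315 to 553. All 7 endothelial markers stayed under the filter, and the 5 epithelial markers tested summed to 64.2 at most. None of the leukocyte or epithelial markers tested was called. Among 9 reference genes none was called either, and their median log2 change was -0.11.

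**Figure D1:**
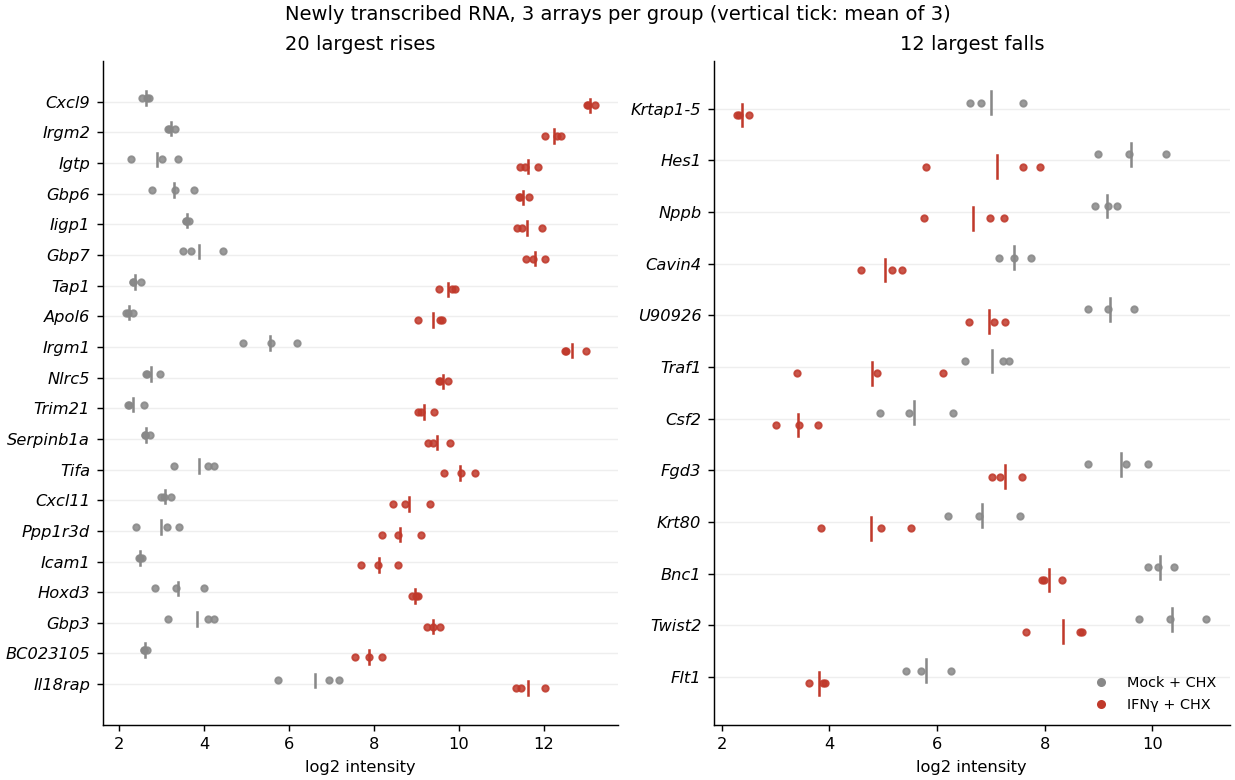
Log2 intensity (x axis) on each of the 3 Mock + CHX arrays (grey) and the 3 IFNγ + CHX arrays (red) for the genes with the 20 largest rises and the 12 largest falls, with a vertical tick at the mean of 3. In each gene the groups do not overlap, and rises reach 10.46 log2 units (Cxcl9) against -4.63 for the deepest fall (Krtap1-5).

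The largest rise was that of Cxcl9, a chemokine that attracts activated T cells through the receptor CXCR3. Its intensity was 6.5, 6.3 and 5.8 on the mock arrays with CHX, at the floor of the array, and 9420.0, 8459.8 and 8315.6 with IFNγ. This is a log2 change of 10.46 (SE 0.21, adjusted p = 2.90e-13). For genes at the floor in the controls the size depends on that floor: with 16 added to each intensity before the logarithm the change of Cxcl9 was 8.62. The other known CXCR3 ligands also rose. Cxcl11 went from 9.4, 8.3 and 7.9 to 641.0, 346.6 and 423.4, a log2 change of 5.74 (SE 0.30, adjusted p = 9.44e-09) by 1 of its 2 probe sets, while the other gave 0.57. Cxcl10 was already transcribed in the mock cells with CHX, at 1530.3, 583.5 and 323.5, and reached 16720.8, 12678.6 and 11406.7, a log2 change of 4.34 (SE 0.43, adjusted p = 7.69e-06). With Cx3cl1, the membrane-bound chemokine fractalkine (3.47), these made 4 of the 10 CXC and CX3C chemokines tested. The neutrophil-attracting Cxcl1, Cxcl2 and Cxcl5 were not called (-0.09, -1.14 and -0.12). None of the 6 CC chemokines tested was called, and their log2 changes ran from -1.63 for Ccl20 to 0.89 for Ccl11.

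The immunity-related GTPases (IRG) act on the vacuoles of intracellular parasites and bacteria, and the guanylate-binding proteins (GBP) are a related family with the same kind of target. All 5 IRG genes tested rose, with a median log2 change of 8.0. Irgm2 went from 10, 8.9 and 9.0 to 5445.8, 4176.8 and 5063.4, a log2 change of 9.03 (SE 0.14, adjusted p = 1.46e-14). Igtp went from 4.9, 8.1 and 10.4 to 3700.9, 3005.9 and 2792.6, a change of 8.72. Iigp1 rose by 8.0, Irgm1 by 7.11 and Gm4951 by 4.46. Irgm1 was the only one of the 5 with a clear signal in the controls, at 72.6, 47.5 and 30.2, and it reached 8182.2, 5761.9 and 5854.6. Of 6 GBP genes tested 4 rose: Gbp6 by 8.21, Gbp7 by 7.91, Gbp3 by 5.57 and Gbp2 by 3.67. Gbp2b and Gbp8 had log2 changes of 0.46 and -0.00. Members of both families are close paralogues, and a probe set annotated to a single gene may still hybridise to a neighbour.

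The 2 strongest IRG genes carry a GAS-type sequence (TTCNNNGAA) and an ISRE-type sequence (a pair of GAAA blocks with any 2 bases between) side by side, just before their start sites. The runs below are from RefSeq promoters on GRCm38.p6, in the direction of the gene, with both motifs in capitals, at chr11:58214898-58214927 (+ strand) for Irgm2 and chr11:58199507-58199536 (+ strand) for Igtp. They begin with the GAS letters 75 and 45 bases before the annotated start, and 29 of the 30 bases match.
Irgm2: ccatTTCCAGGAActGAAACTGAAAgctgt
Igtp: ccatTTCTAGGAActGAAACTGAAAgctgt
Among the other listed genes searched a GAS and an ISRE also lay within 1 run of this length in Bst2, Irf2, Parp11 and Cxcl14, whose log2 changes of 0.73, 0.92, 0.19 and 0.02 were not called.

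Gbp7 and Gbp3, which both lie on chromosome 3, and Irgm1 hold the same kinds of motif farther apart or alone. For Gbp7 one GAS lies at chr3:142530220-142530248 (106 bases before the start), a second at chr3:142530239-142530267 (87 bases), and an ISRE at chr3:142530273-142530302 (53 bases). Gbp3 and Irgm1 each hold a pair of overlapping ISRE hits, of which 1 each is shown, at chr3:142559989-142560018 (45 bases) and at chr11:48871425-48871454 on the minus strand (24 bases). Capitals mark the motif, on whichever strand it reads.
Gbp7 first GAS: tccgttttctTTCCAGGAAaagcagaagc
Gbp7 second GAS: aagcagaagcTTCTCAGAAagtcagcaca
Gbp7 ISRE: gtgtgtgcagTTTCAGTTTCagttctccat
Gbp3 ISRE: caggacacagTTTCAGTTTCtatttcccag
Irgm1 ISRE: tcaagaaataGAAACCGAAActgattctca
No GAS letters were found before the start in the windows of Gbp3 and Irgm1.

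Of 11 receptor, JAK and STAT genes tested 3 rose: Stat2 (4.60), Stat3 (2.40) and Ifnar2 (1.79), the last a subunit of the type I IFN receptor. Stat3 went from 1374.1, 1247.9 and 1026.6 to 7526.9, 6261.5 and 5480.1. Stat2 varied more between arrays, at 9.8, 13.8 and 14.2 with mock and 696.4, 70.7 and 562.1 with IFNγ (SE 0.71, adjusted p = 6.07e-04). The IFNγ receptor chains Ifngr1 and Ifngr2 (-0.11 and -1.19) and the kinases Jak1, Jak2 and Tyk2 (0.66, 0.49 and -0.14) were not called. Among 6 IRF transcription factors tested 2 rose. Irf9, the DNA-binding partner of the STAT proteins at the ISRE, went from 59.3, 36.9 and 28.0 to 1039.1, 695.3 and 875.3, a log2 change of 4.44 (SE 0.30, adjusted p = 1.47e-07). Irf1, an activator of many secondary IFN targets, stood at 2465.1, 1501.2 and 1319.9 with mock and CHX and reached 21427.5, 15500.5 and 16526.6, a log2 change of 3.38 (SE 0.24, adjusted p = 2.23e-07). Irf7, the factor that amplifies type I IFN production, had a log2 change of 0.06.

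Of 17 negative regulators of the pathway tested 5 rose and none fell. Socs1, which blocks JAK kinases, went from 46.9, 66.9 and 34.6 to 1268.5, 1244.4 and 690.0, a log2 change of 4.43 (SE 0.36, adjusted p = 1.10e-06). Cish rose by 3.40, Socs3 by 2.87, Usp18 (a brake on the type I receptor) by 2.21 and Socs2 by 1.84. Socs3 was abundant in both groups, at 3340.4, 2103.4 and 1493.5 against 14102.2, 17830.5 and 16201.6. Its 3 probe sets gave log2 changes of 2.87 to 4.03. The phosphatases Ptpn1, Ptpn2 and Ptpn11 (0.56, 0.11 and -0.33) and the 4 Pias genes (-0.53 to 0.45) were not called.

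Irf1 and Socs3 hold GAS letters in their promoter windows and Socs1 holds a pair of overlapping ISRE hits, of which 1 is shown. The stretches are at chr11:53769914-53769942 (+ strand, 90 bases before the start) for Irf1, chr11:117969502-117969530 (minus strand, 154 bases) for Socs3 and chr16:10785594-10785623 (minus strand, 77 bases) for Socs1.
Irf1 GAS: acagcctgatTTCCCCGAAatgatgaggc
Socs3 GAS: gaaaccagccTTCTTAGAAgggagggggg
Socs1 ISRE: gccggaaagaGAAACCGAAAgcgggggtgg

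Antigen presentation by MHC class I begins with peptides cut by the proteasome and pumped into the endoplasmic reticulum by the TAP transporter. Of 13 genes of this route tested 5 rose. Tap1, a TAP subunit, went from 5.7, 5.0 and 5.0 to 954.7, 910.7 and 734.4, a log2 change of 7.37 (SE 0.22, adjusted p = 1.32e-11). Nlrc5, the transactivator of class I genes, went from 6.3, 6.2 and 7.8 to 754.8, 862.8 and 744.1, a change of 6.87. The class I heavy chains H2-D1 and H2-K1 and their partner B2m rose by 1.58, 1.56 and 1.22. Tap2, Tapbp and Erap1 were not called (0.35, 0.41 and 0.01). Of the 4 immunoproteasome and PA28 genes tested, Psmb9 rose by 4.11 and the others were not called. For Psmb8 the brighter probe set gave 0.08 while its other probe set was raised (2.37), so the gene is uncertain here. Psmb10 and Psme1 had log2 changes of -0.08 and -0.29. None of the 14 genes of the constitutive proteasome core was called, and all lay between -0.54 and -0.14. Of the MHC class II route 3 genes passed the filter, none was called, and Ciita, its master regulator, stayed under the filter on every array.

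Of 26 antiviral effectors and sensors tested 11 rose and none fell, with a median log2 change of 0.79. Trim21, an antibody receptor with ubiquitin ligase activity, rose by 6.85 (from 4.7, 4.6 and 6.0 to 682.0, 549.6 and 528.0). Samhd1, a hydrolase of deoxynucleotides, rose by 4.09, Trim25 by 3.42, Oasl2 by 3.19, Xaf1 by 3.13 and the RNA sensor Ddx58 (RIG-I) by 2.71. The change of Ifit1 was 1.48. Mx1, Mx2, Rsad2, Ifit3, Ifih1 and Oasl1, classical targets of type I IFN, had log2 changes of -0.08, 0.02, 0.10, 0.16, 0.03 and -0.01, none of them called. Others were not called at larger values, such as the kinase gene Eif2ak2 (PKR) at 2.18 (SE 0.55, adjusted p = 0.0254), or passed the p but not the 2-fold limit, as did Mndal (0.84), Oas1a (0.74) and Isg20 (-0.63). Of the 5 ADP-ribosyltransferase genes and Dtx3l tested 4 rose: Parp14 by 4.90, Parp9 by 4.26, Dtx3l by 4.12 and Parp12 by 1.89.

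Of 16 adhesion and immune surface genes 7 rose and none fell. Icam1, the ligand of leukocyte integrins, went from 5.6, 5.8 and 5.5 to 376.0, 273.5 and 205.6, a log2 change of 5.62 (SE 0.24, adjusted p = 9.53e-10). Cd274, which encodes PD-L1, rose by 4.26 (5.8, 7.0 and 6.0 against 118.4, 121.0 and 118.6). Lifr, Il13ra1, Tnfrsf1a, Osmr and Fas rose by 2.40, 2.06, 2.02, 1.61 and 1.58. Of 15 cytokine genes Il6 and Il1a each rose by 2.13, while Csf2 and Lif fell (log2 -2.16 and -1.40). Without CHX the log2 changes of Csf2 and Lif were -0.46 and -0.50, and neither difference was called. In Il6 the controls read 886.4, 956.8 and 742.5 and the IFNγ arrays 3008.3, 4501.8 and 3914.0.

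Among 15 genes of cell death and the inflammasome 5 rose: Casp12 by 4.11, Casp4 by 2.79, the necroptosis kinase Ripk3 by 2.20, Pml by 1.37 and the necroptosis effector Mlkl by 1.34. Of 17 NF-κB subunits, inhibitors and targets 3 rose, Tnfaip2 (2.44), Sod2 (2.25) and Birc3 (1.11). Traf1 fell (log2 -2.23), from a control level with CHX: the paper places it among the transcripts most induced by CHX alone. Without CHX its log2 change with IFNγ was -0.02, though the difference was not called (adjusted p of the interaction 0.253). Nfkbia, the inhibitor that NF-κB itself induces, and Tnfaip3 had log2 changes of -0.10 and -0.00, and the subunits Rel, Rela, Relb and Nfkb2 lay between -0.10 and -0.00. The 25 immediate-early genes tested, among them Fos, Jun, Egr1 and Myc, gave no call, and their median was -0.04.

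Icam1 holds a GAS close to its start and Casp12 a pair of them, and Cxcl10 holds an ISRE and a pair of NF-κB hits (GGG, any 3 bases, TTCC), with 1 of each pair shown. The stretches are at chr9:21015888-21015916 (+ strand, 42 bases before the start) for Icam1 and chr9:5345430-5345458 (+ strand, 36 bases) for Casp12. Those of Cxcl10, on the minus strand, are at chr5:92349083-92349112 (213 bases) for the ISRE and chr5:92349029-92349058 (159 bases) for NF-κB.
Icam1 GAS: ggcgcgaggtTTCCCGGAAagtggccccg
Casp12 GAS: attggtatgtTTCTGGGAAggaaaggcac
Cxcl10 ISRE: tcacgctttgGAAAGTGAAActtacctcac
Cxcl10 NF-κB: agaggggagaGGGAAATTCCaagttcatgg

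Other genes among the 20 largest rises belong to no list above. Apol6, an apolipoprotein L, rose by 7.17. The serpin Serpinb1a, an inhibitor of neutrophil proteases, went from 6.6, 6.1 and 6.1 to 879.8, 621.7 and 670.7, a log2 change of 6.84. Serpinb1b, its close paralogue, rose by 4.84, and a shared signal between both probe sets cannot be told apart from separate rises. Tifa, an adaptor of TRAF6 signalling, rose by 6.14, Ppp1r3d, a targeting subunit of protein phosphatase, by 5.64, the homeobox gene Hoxd3 by 5.57 and Il18rap, a subunit of the IL-18 receptor, by 4.99. Il18rap had a measurable signal before IFNγ (53.4, 123.1 and 144.7) and reached 2616.8, 2826.2 and 4166.9. In BC023105 the change was 5.26.

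**Figure D2:**
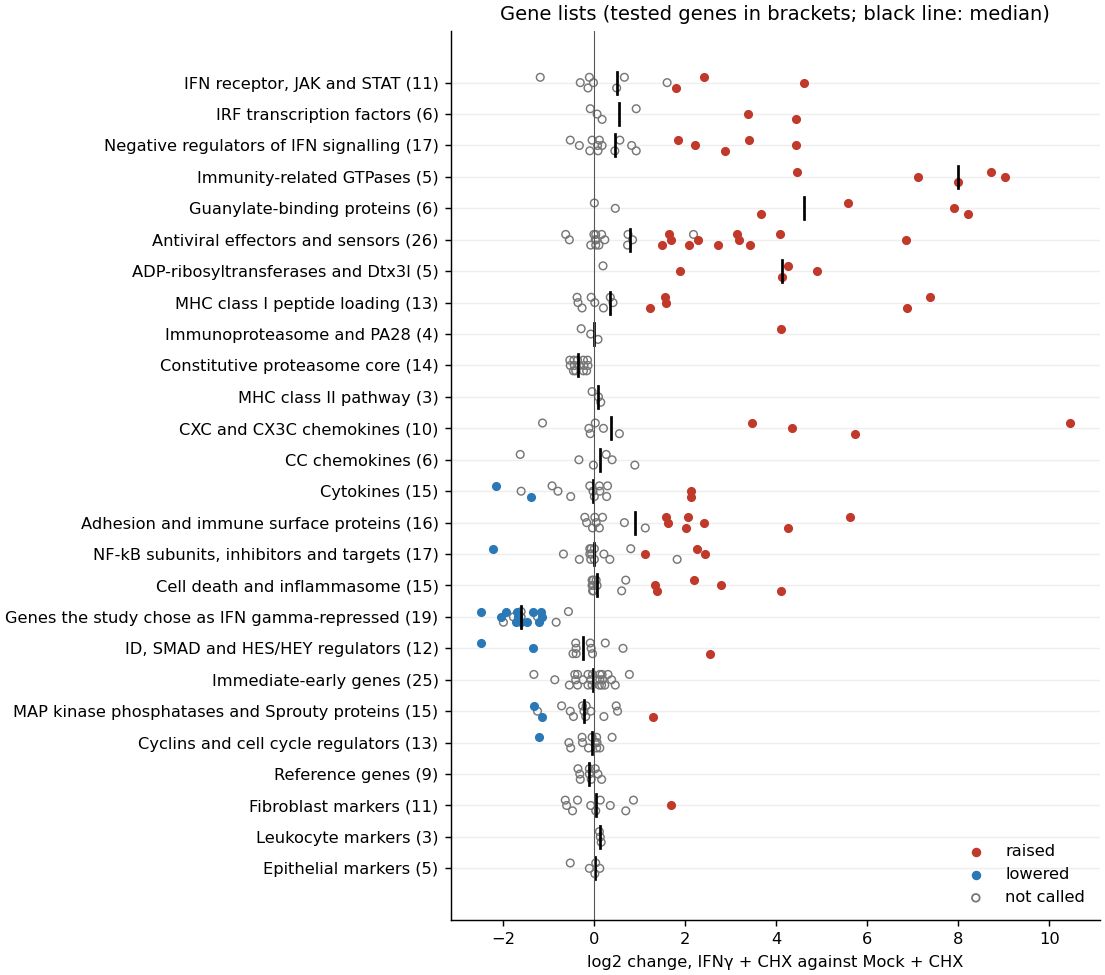
Log2 change, IFNγ + CHX against Mock + CHX (x axis), of each tested gene of 26 gene lists (y axis), with raised genes in red, lowered genes in blue, genes not called as open circles and the median as a black line. The IRG list lies wholly to the right (median 8.0), and most blue points lie in the list of genes the study chose as IFNγ-repressed.

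The falls were smaller than the rises. Krtap1-5, a keratin-associated protein, had the largest, from 194.0, 112.7 and 97.9 to 4.9, 5.7 and 5.0, a log2 change of -4.63 (SE 0.43, adjusted p = 3.65e-06). Its level without CHX and without IFN was 4.9, 4.7 and 4.7, so IFNγ with CHX read as low as cells without CHX. The transcriptional repressor Hes1 went from 1225.8, 762.1 and 509.5 to 241.9, 194.5 and 55.5, a log2 change of -2.50 (SE 0.47, adjusted p = 0.00312). It lost its call without replicate 1 or replicate 2 of the controls. Nppb, which encodes a natriuretic peptide, went from 652.9, 579.6 and 489.4 to 127.0, 151.2 and 54.3 (log2 -2.49). The zinc finger factor Bnc1 had the smallest error of these, 1349.4, 1094.1 and 974.2 against 253.6, 247.4 and 319.2 (log2 -2.06, SE 0.14, adjusted p = 1.23e-07).

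Cavin4, U90926, Csf2 (GM-CSF), Fgd3, Twist2 and Flt1 fell by log2 changes of -2.41, -2.24, -2.16, -2.15, -2.02 and -1.99. Traf1 (-2.23) and Krt80 (-2.07) stood closest to the threshold, with adjusted p of 0.00666 and 0.00865. Both lost the call under quantile normalisation, with no filter on low values, and when single arrays were left out: replicate 3 with IFNγ and replicate 1 of the controls for both, replicate 3 of the controls for Traf1, and replicate 1 with IFNγ and replicate 2 of the controls for Krt80. In Traf1 the IFNγ arrays read 10.5, 68.9 and 29.7 and the controls 149.6, 91.2 and 162.4, and only 1 of 2 probe sets was lowered. With only the 6 arrays fitted, all of these falls except those of Krtap1-5 and Bnc1 missed the threshold, with adjusted p of 0.0105 (Cavin4) to 0.256 (Traf1). All stayed called with the replicate block.

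Of the 19 genes that the study itself picked as IFNγ-repressed, 12 fell and none rose, with a median log2 change of -1.61. The list was drawn up by the study partly on these samples, and its direction is no independent evidence. Besides Hes1 and Bnc1 it holds Rgs4, a brake on G-protein signalling, which went from 2080.6, 1391.5 and 1190.1 to 415.0, 423.4 and 348.0 (log2 -1.94). Ccnd1, the G1 cyclin D1, read 3352.9, 4356.3 and 3338.2 against 1284.6, 1949.0 and 1565.5 (log2 -1.21, adjusted p = 2.56e-04). The inhibitor of DNA binding Id4 fell as well (-1.34), as did Six4, Metrnl and Jade1 (-1.49, -1.70 and -1.62). Mrgprf, at -2.0 with an SE of 0.72, was not called. Among 12 ID, SMAD and HES/HEY regulators Hes1 and Id4 fell and Smad6, an inhibitor of BMP signalling, rose by 2.55. Of 15 MAP kinase phosphatase and Sprouty genes Dusp1 and Dusp14 fell (-1.16 and -1.32) and Spred1 rose by 1.30 (by 1 of its 8 probe sets). Cyclin D1 was the only call among 13 cyclins and cell cycle regulators.

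Whether blocked translation altered the response was tested against the same IFNγ treatment without CHX, on 6 other arrays. There 245 genes were raised (2.02%) and 35 lowered (0.289%). The raised genes common to both numbered 208, which is 50.4% of those raised with CHX and 84.9% of those raised without. In these 208 the median log2 change was 2.53 with CHX and 1.91 without, and it was larger with CHX in 156. Lowered in both were 18 genes, 24% of the list with CHX and 51.4% of the list without. No gene was raised in one and lowered in the other. The difference itself, the IFNγ by CHX interaction, was called for 37 genes with a higher log2 change under CHX (0.305%). It was called for 7 with a lower one (0.0578%). Among the genes lowered with CHX, 3 had a called difference. Larger and smaller responses, here and below, go by the signed log2 change, so a deeper fall counts as smaller. Of the 205 genes raised only with CHX, 199 were positive without it as well, where the median log2 change over all genes was 0.01. A called difference was found for 24 of the 205, which were picked on arrays that the difference also uses. The counts of called differences were sensitive to single arrays. By probe set there were 55 larger and 11 smaller responses, and 32 to 60 and 4 to 12 when each array was left out in turn. The larger responses dropped to 32 without replicate 2 of the mock arrays with or without CHX, to 34 without replicate 3 of IFNγ alone and to 35 without replicate 3 of the mock arrays with CHX.

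**Figure D3:**
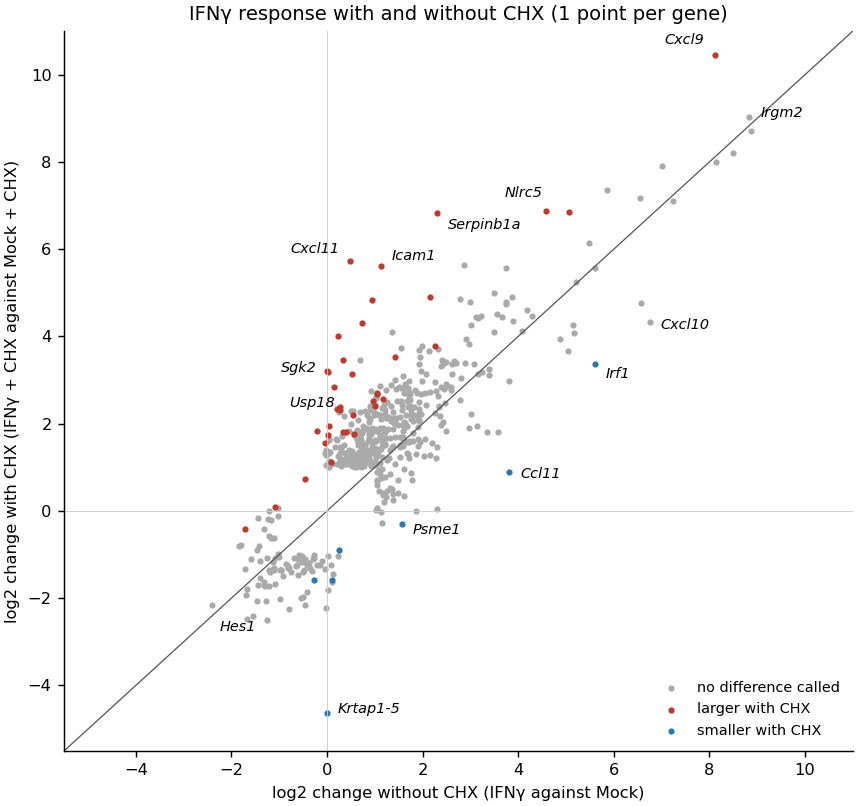
Log2 change by IFNγ without CHX (x axis) and with CHX (y axis), 1 point per gene called in either response or in their difference, with the line of equality. Points in red had a higher and points in blue a lower log2 change with CHX by the interaction, and Cxcl11, Icam1 and Serpinb1a lie farthest above the line.

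Cxcl11, Icam1 and both serpins had the largest gain in response when translation was blocked. Cxcl11 read 8.8, 8.2 and 7.7 with mock and 14.1, 12.3 and 8.8 with IFNγ in the absence of CHX, against 641.0, 346.6 and 423.4 with both, and the responses differed by 5.25 log2 units (SE 0.42, adjusted p = 2.61e-05). Icam1 read 13.9, 14.4 and 6.9 with IFNγ alone, and the difference was 4.50 (SE 0.34, adjusted p = 1.43e-05). Serpinb1a and Serpinb1b differed by 4.54 and 3.90. Arrdc2, an arrestin-domain protein, the lysosomal enzyme Manba and the kinase Sgk2 had log2 changes of 0.22, 0.73 and 0.02 without CHX and of 4.00, 4.30 and 3.18 with it. Sgk2 was at 4.3, 4.3 and 4.2 with IFNγ alone and at 43.0, 37.2 and 38.0 with IFNγ and CHX. Usp18 and Nlrc5 were also larger, by 1.66 and 2.28, and so was Cxcl9, by 2.34 (adjusted p = 0.00183). The IRG genes were not called as different, with interactions of -0.16 to 1.24, and neither were the GBP genes.

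Lower log2 changes under CHX came in several forms, among them smaller rises and deeper falls. Ccl11, the chemokine eotaxin, went from 9.0, 9.7 and 10.4 to 156.2, 124.8 and 127.5 without CHX, and read 12.5, 25.4 and 21.2 with IFNγ and CHX against 12.4, 9.4 and 9.0 (difference -2.91, SE 0.29, adjusted p = 1.76e-04). Psme1, a subunit of the proteasome activator PA28, rose by 1.57 without CHX and changed by -0.29 with it (difference -1.86, adjusted p = 0.00305). Its difference lost the call without replicate 2 of either mock group. Irf1 differed by -2.23 (SE 0.34, adjusted p = 0.00698), although its IFNγ level was higher with CHX: 13275.9, 12456.0 and 11533.0 without it and 21427.5, 15500.5 and 16526.6 with it. The mock level had moved more, from 376.2, 203.7 and 212.9 to 2465.1, 1501.2 and 1319.9. The call of Irf1 was lost in 8 of the 12 fits that each left out 1 array. Cxcl10 had the same pattern, with a mock level of 70.4, 49.1 and 35.6 without CHX, but its difference of -2.42 was not called (adjusted p = 0.127). For Krtap1-5 the difference was -4.62 and came from its fall with IFNγ under CHX, since this gene was at the floor in both groups without CHX. It lost the call with 16 added to the intensities and without replicate 1 of both groups with CHX. Clcf1, Cgref1 and Ccn5 differed by -1.30, -1.69 and -1.16. Cgref1 was lowered by IFNγ under CHX (log2 -1.59), and Clcf1 also read lower with IFNγ and CHX than with mock and CHX. Cgref1 and Ccn5 lost the call in most fits that left out an array (10 and 9 of 12).

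**Figure D4:**
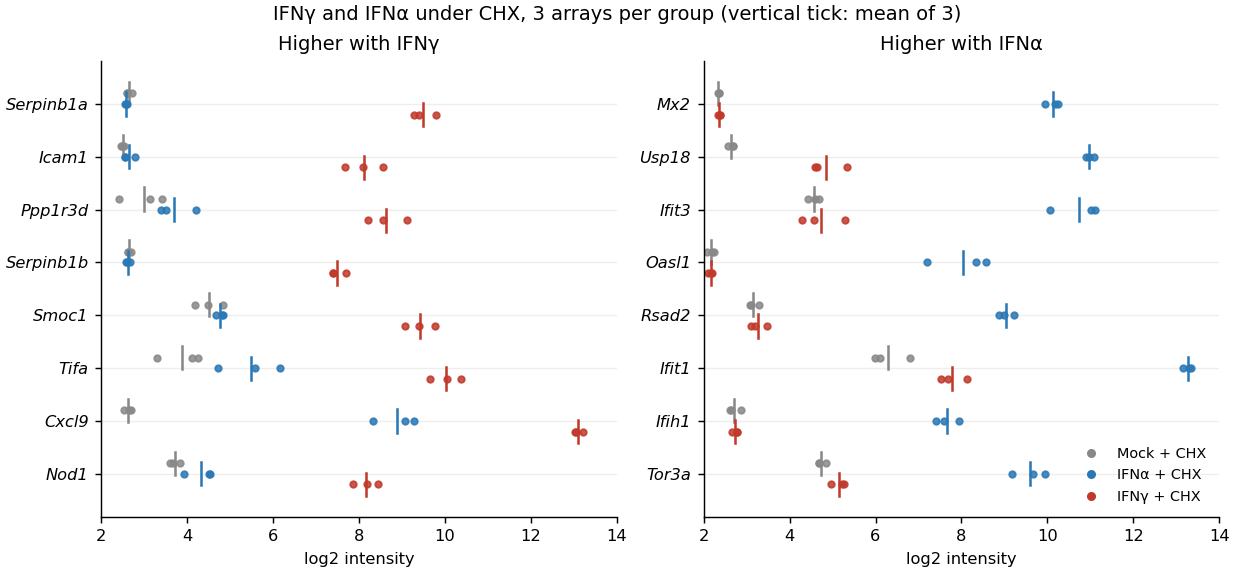
Log2 intensity (x axis) on each of the 3 Mock + CHX (grey), IFNα + CHX (blue) and IFNγ + CHX (red) arrays for the 8 genes with the largest called difference in each direction between the IFNs, with a tick at the mean of 3. In the left panel IFNα leaves Icam1 and the serpins at the control level, and in the right panel IFNγ leaves Mx2, Oasl1 and Ifih1 there.

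IFNγ was set directly against IFNα under CHX, on the IFNγ arrays used above and 3 further ones. Transcription was higher with IFNγ for 277 genes (2.29%) and higher with IFNα for 186 (1.53%). Of the 413 genes raised by IFNγ, 271 were higher than with IFNα and 23 lower, and of the 75 lowered genes 67 were lower than with IFNα and none higher. Both sets share the IFNγ arrays with this contrast. Serpinb1a read 6.1, 6.0 and 5.9 with IFNα and CHX, and differed by 6.90 log2 units (SE 0.28, adjusted p = 9.49e-10). Icam1 read 5.9, 5.9 and 6.9 and differed by 5.48. Tifa, Smoc1 and Nod1, a sensor of bacterial cell wall, differed by 4.54, 4.64 and 3.85, and Ppp1r3d by 4.92. Cxcl9 responded to both and was higher with IFNγ by 4.20. Among the signalling genes Socs3, Socs1, Cish and Stat3 were higher by 2.09, 2.32, 2.47 and 1.52.

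In the opposite direction Mx2, a GTPase that restricts viruses, read 5.2, 5.0 and 5.2 with IFNγ and 1213.0, 1155.4 and 983.7 with IFNα, a difference of -7.76 (SE 0.08, adjusted p = 1.66e-16). Usp18 differed by -6.13, Ifit3 by -6.01, Oasl1 by -5.88, Rsad2 by -5.78, Ifit1 by -5.49, Ifih1 by -4.92 and Tor3a by -4.45. Of the 26 antiviral genes tested 17 were lower with IFNγ and only Samhd1 was higher (2.40). All 4 raised PARP and Dtx3l genes were lower as well. Several genes did not pass in either direction: Irgm2 (0.24), Igtp (0.49), Irgm1 (0.67), Trim21 (-0.05), Irf9 (-0.45) and Irf1 (0.66). For Trim21 the IFNα arrays read 798.3, 577.2 and 475.0 and the IFNγ arrays 682.0, 549.6 and 528.0, which overlap.

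**Figure D5:**
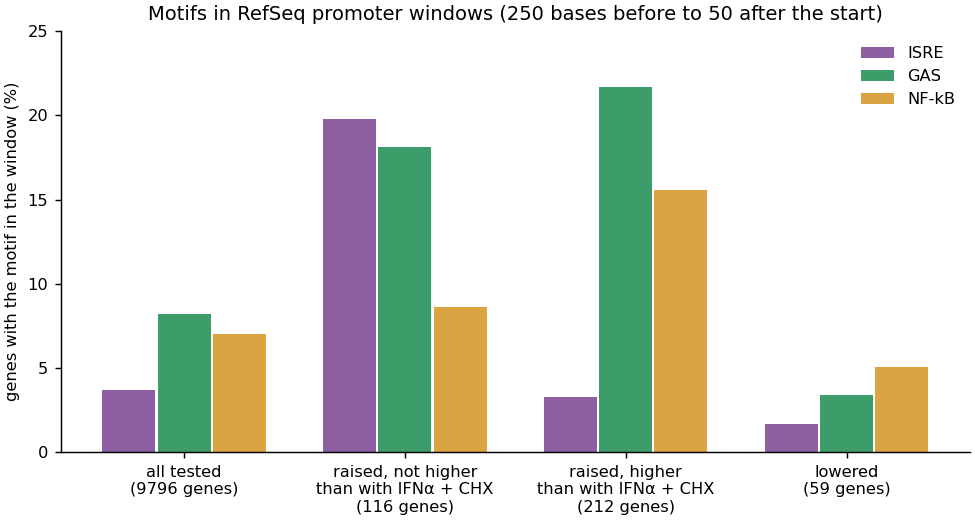
Share of genes (y axis, %) whose RefSeq promoter windows hold ISRE (purple), GAS (green) or NF-κB letters (yellow), for all tested genes, both classes of raised genes and lowered genes (x axis). ISRE letters were in 19.8% of raised genes that were not higher than with IFNα and in 3.3% of those that were, while the GAS shares were 18.1% and 21.7%.

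Promoter sequence was not used in the comparison. RefSeq windows on GRCm38.p6, from 250 bases before to 50 after the start, were found for 328 of the 413 raised genes, 59 of the 75 lowered ones and 9796 of all tested. Each motif was searched on both strands, hits could overlap those of another motif, and a gene counted if any of its windows had a hit. GAS letters were present for 20.4% of raised, 3.39% of lowered and 8.19% of all tested genes. ISRE letters were present for 9.15%, 1.69% and 3.71%, and NF-κB letters for 13.1%, 5.08% and 7%. Over all 32851 windows the shares were 8.3%, 3.44% and 5.56%. GC boxes (GGGCGG) were in 72.3% of raised, 55.9% of lowered and 66.7% of all tested genes, and in 35.7% of all windows. Of the 62 genes raised at least 8-fold with a window, 17.7% held ISRE letters and 21% GAS letters. Ifit3 and Rsad2, which IFNγ left near the control level, also hold ISRE letters, as does Ifit1. Nfkb2, Klf9 and Tnip1, which were not called, hold GAS letters. The stretches printed above were taken only from genes with a hit. The shares are descriptions of letters in these windows and were given no test.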

How the data were processed

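Newly transcribed RNA was labelled with 4sU, purified and hybridised to 1 array for each of 18 samples (6 treatments, n = 3 arrays). The deposited values were linear intensities and were used as they were. The paper names gc-RMA in R/Bioconductor as its normalisation, while the submitters' processing notes name Affymetrix Expression Console. Which of them gave the deposited values was not settled here. The detection calls behind the authors' filter on present probe sets were not used here. Instead, of 45101 probe sets in the table, 64 controls were left out and probe sets were ranked by their highest intensity on any array, and 27773 were kept, about as many as the study's filter left (the lowest such maximum was 8.5). Of all non-control probe sets 34945 had 1 gene symbol, 932 several and 9160 none in GEO's platform annotation. A gene was represented by its kept probe set with the highest mean log2 intensity, and probe sets with several symbols were named nowhere.

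Log2 intensities of all 18 arrays were fitted in 1 model with limma 3.58.1 in R 4.3.3 (12 residual and 2.05 prior degrees of freedom), with Benjamini-Hochberg adjustment over the 27773 probe sets. The threshold for a call is given with the first counts. Every adjusted p printed is from this model unless another fit is named. Errors are standard errors of the fitted difference, and the number of arrays limits their precision. Samples were grouped by their labels. Same-numbered arrays of the IFNγ and mock groups with CHX deviated together (r of 0.639, 0.227 and 0.502 between their deviations from the group means). The main model did not include this pairing. It entered only the alternative fit with the replicate number as a block. Named were the 20 largest rises and 12 largest falls, the 8 largest differences in each direction with and without CHX and between IFNγ and IFNα, and members of the gene lists. The members and lists were chosen with earlier results of these data known. Alternatives were other added constants, quantile normalisation, median centring, other filters, the replicate block, only the arrays compared, and leaving out each array. The limma fit was tested on simulated data with known changes, in which arrays varied independently, unlike the same-numbered arrays here. Some probe sets cannot tell paralogues apart, and genes left out of the text are not reported here.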

Additional observations from a re-analysis of the deposited data

Results flagged for a closer look

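The response to IFNγ differed with and without CHX, by the interaction term of the limma model, for 15 named genes. Larger with CHX were the responses of Cxcl11 (log2 difference 5.25), Serpinb1a (4.54), Icam1 (4.50), Serpinb1b (3.90), Arrdc2 (3.79), Manba (3.57), Vmn1r42 (3.20) and Sgk2 (3.16). For Vmn1r42, a pheromone receptor gene, the IFNγ arrays with CHX read 98.8, 34.8 and 103.9, the mock arrays with CHX 7.4, 10.2 and 6.1, and the mock and IFNγ arrays without CHX 5.5 or less, and the call was lost in 11 of the 12 fits that each left out 1 array. Smaller or more negative with CHX were those of Krtap1-5 (-4.62), Ccl11 (-2.91), Irf1 (-2.23), Psme1 (-1.86), Cgref1 (-1.69), Clcf1 (-1.30) and Ccn5 (-1.16). In Clcf1, a cytokine of the IL-6 family, the intensity was 3934.7, 4135.5 and 4465.2 with mock and CHX and 1201.1, 1650.5 and 1354.6 with IFNγ and CHX, and without CHX the log2 change was -0.28. Groups of 3 arrays were too small for a check of single outlying values.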

How the results depend on the processing

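Of 1058 refits under an alternative of the genes named for the size of their change, 972 kept their call, 86 lost it and 0 changed direction. Fitting only the arrays of the treatments compared, which leaves fewer residual degrees of freedom, cut every count: probe sets raised and lowered by IFNγ under CHX from 714 and 170 to 255 and 13 (genes from 413 and 75 to 155 and 7), those without CHX from 394 and 58 to 231 and 19, those higher with IFNγ or IFNα under CHX from 482 and 331 to 104 and 64, larger and smaller responses with CHX from 55 and 11 to 24 and 3, and genes of all lists raised and lowered from 64 and 16 to 39 and 1. With the replicate number as a block, lowered probe sets rose to 330 under CHX (116 genes) and to 104 without CHX, and larger and smaller responses to 102 and 23. No gene named for the size of its change lost its call with the block, while genes of all lists raised and lowered went to 67 and 21. The block also covered groups whose same-numbered arrays did not all deviate together. These were IFNγ and mock without CHX (r of 0.569, -0.089 and 0.452) and both IFNs with CHX (0.625, -0.352 and 0.072). Keeping probe sets with a mean log2 intensity of at least 5 gave 24 larger and 4 smaller responses, and keeping all gave 7 smaller ones. The cause of these moves was not tested.

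Without 1 array at a time, probe sets raised under CHX ranged from 617 to 737 and lowered from 131 to 246 (genes from 358 to 440 and from 54 to 112), and without replicate 1 of both groups they numbered 648 and 124. Those without CHX ranged from 333 to 387 and from 41 to 61, and those higher with IFNγ or IFNα from 395 to 501 and from 260 to 366. Larger responses with CHX, by the signed log2 change, ranged from 32 to 60 and smaller or more negative ones from 4 to 12. The smaller ones numbered 7 or fewer without IFNγ with CHX replicates 1 or 3, any mock array, or IFNγ replicate 1, and 4 without replicate 1 of both groups with CHX. Genes of all lists raised ranged from 61 to 67 and lowered from 10 to 16, with 10 without IFNγ with CHX replicate 3. Added after seeing the data were the fits without both replicates 1, those of the difference between responses without an array of the groups lacking CHX, and those of IFNγ against IFNα without an IFNα array with CHX. Signal near the floor of the array limits the fold of 35 raised genes, whose controls with CHX had a geometric mean intensity under 8.5.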
